A study of Homo sapiens with 31 samples.

Results

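The 40 genes described here act in G2 phase and mitosis: CDK1 and its cyclins, the CDC25 phosphatases, the Polo-like and Aurora kinases, the spindle assembly checkpoint, the kinetochore, the spindle, the chromosomal passenger complex, the anaphase machinery, cytokinesis, chromosome structure, and the transcription factors FOXM1 and MYBL2. They were taken by name, for their known function, though with earlier results of these data known. All 40 were found among the 19221 genes used, and all 40 passed the filter on low values in both comparisons. Their expression was measured by mRNA sequencing in 31 libraries of 4 groups of cell cultures, which the study used as ovarian cancer lines. The paper itself grants doubts about the origin of C13* and about A2780 as a model of high-grade serous ovarian cancer. C13* shCON (n = 7) is the cisplatin-resistant line C13*, proficient in homologous recombination, with a control shRNA. C13* shCEBPB (n = 8) is C13* with a lentiviral shRNA against CEBPB, the gene of the transcription factor C/EBPβ. A2780 (n = 8) is an untreated parent line. A2780 OlaR (n = 8) is a resistant line grown out of A2780 in rising olaparib, an inhibitor of PARP, and its label gives olaparib as the treatment. The labels do not say whether libraries of a group came from separate cultures, so p-values measure the spread between these libraries, which may be technical.

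Cells enter mitosis when CDK1, bound to a cyclin and freed of inhibitory phosphate by a CDC25 phosphatase, phosphorylates its targets. The spindle assembly checkpoint holds cells in metaphase until every kinetochore is attached, after which the anaphase-promoting complex with CDC20 marks securin and cyclin B for destruction. Most of these genes are transcribed in a wave that peaks late in the cell cycle. The wave is driven by MYBL2 and FOXM1 with the MuvB complex, which binds the CHR element in promoters, beside CCAAT boxes bound by NF-Y. MKI67 encodes the Ki-67 antigen, which pathologists stain to count cycling tumour cells.

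RefSeq promoter windows (250 bases before to 50 after each start, GRCh38.p14) matched 33 of the 40 genes by symbol. AURKA, BUB3, TTK, TPX2, BIRC5, UBE2C and FOXM1 had none. The CHR letters, TTTGAA or the letters TTCGAA, stood on either strand in the windows of 24 of the 33 genes (72.7%), against 17.4% of 14514 genes with a window. CCAAT stood in 26 (78.8%) against 42.3%, and 20 of the 33 held both, against 9.05% of all. The C/EBP letters TTGCNNAA were in the windows of 4 genes (12.1%), which were PLK4, BUB1B, CENPF and INCENP, against 11.3% of all. The 250 bases before the start are given for 6 genes, 5′ to 3′ on the strand of the gene. PLK1, MKI67, TOP2A and PRC1 hold CHR and CCAAT matches and moved in different directions in C13* shCEBPB, while CENPE and MYBL2, which hold neither, had a large fall and a large rise there. Capitals mark CHR and CCAAT matches, as TTCAAA and ATTGG where they lie on the other strand.
PLK1 (chr16:23678639-23678888, plus strand): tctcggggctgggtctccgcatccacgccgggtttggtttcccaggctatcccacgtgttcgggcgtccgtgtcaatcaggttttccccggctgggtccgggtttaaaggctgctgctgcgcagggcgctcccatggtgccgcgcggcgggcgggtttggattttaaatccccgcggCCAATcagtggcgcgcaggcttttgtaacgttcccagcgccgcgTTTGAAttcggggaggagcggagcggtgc
MKI67 (chr10:128126424-128126673, minus strand): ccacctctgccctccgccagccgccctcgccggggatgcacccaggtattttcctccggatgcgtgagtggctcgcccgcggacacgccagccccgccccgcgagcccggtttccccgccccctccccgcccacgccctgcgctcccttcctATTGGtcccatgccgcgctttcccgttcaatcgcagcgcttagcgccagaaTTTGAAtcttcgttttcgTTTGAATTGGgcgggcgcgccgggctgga
TOP2A (chr17:40417897-40418146, minus strand): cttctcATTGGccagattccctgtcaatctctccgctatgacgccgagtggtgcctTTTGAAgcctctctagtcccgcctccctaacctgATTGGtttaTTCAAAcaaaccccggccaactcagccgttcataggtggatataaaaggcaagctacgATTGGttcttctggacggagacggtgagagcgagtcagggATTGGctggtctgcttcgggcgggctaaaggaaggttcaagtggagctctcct
PRC1 (chr15:90994536-90994785, minus strand): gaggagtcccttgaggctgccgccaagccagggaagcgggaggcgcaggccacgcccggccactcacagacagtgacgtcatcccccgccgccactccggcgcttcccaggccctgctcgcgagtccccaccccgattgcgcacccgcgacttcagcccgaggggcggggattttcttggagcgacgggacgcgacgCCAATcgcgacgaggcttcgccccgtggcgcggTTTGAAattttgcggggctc
CENPE (chr4:103198344-103198593, minus strand): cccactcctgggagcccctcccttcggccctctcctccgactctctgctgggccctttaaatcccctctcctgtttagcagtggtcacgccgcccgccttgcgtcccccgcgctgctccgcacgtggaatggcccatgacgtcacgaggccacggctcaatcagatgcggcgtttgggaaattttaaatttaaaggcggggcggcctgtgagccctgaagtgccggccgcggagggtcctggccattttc
MYBL2 (chr20:43666864-43667113, plus strand): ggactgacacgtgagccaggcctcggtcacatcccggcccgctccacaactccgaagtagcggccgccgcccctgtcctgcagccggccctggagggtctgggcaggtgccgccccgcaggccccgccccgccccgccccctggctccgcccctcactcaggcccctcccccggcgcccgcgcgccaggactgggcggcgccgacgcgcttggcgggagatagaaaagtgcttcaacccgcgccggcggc
The CHR match nearest the start began 29 bases before it in PLK1 and MKI67 and 20 bases before it in PRC1. In MKI67 that match shared 1 base with a CCAAT match. A match is a run of letters and not a measured binding site. The RefSeq starts are not the only ones, and the GENCODE 44 models of PLK1, PRC1, CENPE and MYBL2 begin further upstream.

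In the hg38 build, by GENCODE 44, the genes most discussed lie as follows, with CCNB1 at chr5:69167135-69178245, CDK1 at chr10:60778331-60794852, PLK1 at chr16:23677656-23690367, FOXM1 at chr12:2857680-2877174, MKI67 at chr10:128096659-128126423, TOP2A at chr17:40388525-40417896, CENPE at chr4:103105349-103198445 and PRC1 at chr15:90966040-90995629. The values are over whole genes, all exons together.

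The groups were not all alike in ways that their labels would give, and these values bear on every result that follows. Across 12967 genes, the mean log2(FPKM + 1) of A2780 OlaR correlated with that of C13* shCON with Pearson r = 0.993, and with that of its parent A2780 with r = 0.709. These are correlations across genes, which are not independent replicates. FPKM are fragments per kilobase of gene, scaled to the sequencing depth of the library, as deposited. KRT5, a keratin of squamous epithelium, had a median of 1573 FPKM in C13* shCON and 1870 in A2780 OlaR, and did not exceed 0.0416 in any library of the other groups. The 14 squamous markers summed to between 3491 and 4393 FPKM in C13* shCON, 306 and 598 in C13* shCEBPB, 71.1 and 75.7 in A2780, and 3356 and 4468 in A2780 OlaR. VIM is the intermediate filament of mesenchymal cells. It had a median of 809 in A2780, 342 in C13* shCEBPB, 10.05 in C13* shCON and 0.159 in A2780 OlaR. Of 11 mesenchymal markers, 9 were tested in A2780 OlaR, and 7 were lower and 2, FN1 and SNAI2, higher. In C13* shCEBPB 5 were higher and 4 lower. The 7 simple epithelial markers summed to between 2414 and 2680 FPKM in C13* shCON and 1785 and 2162 in C13* shCEBPB. They summed to between 85.5 and 94.0 in A2780, and 2632 and 3171 in A2780 OlaR. Of 7 blood and endothelial markers, PTPRC, the leukocyte antigen CD45, had a median of 83.5 in A2780 and at most 0.0144 in any other group. CD68, of macrophage lysosomes, had medians of 64.3 in C13* shCON, 41.5 in A2780 OlaR, 11.8 in C13* shCEBPB and 2.2 in A2780, and the other 5 did not exceed 1.75. The 9 Müllerian and ovarian markers summed to between 998 and 1104 FPKM in C13* shCEBPB, 76.4 and 86.4 in C13* shCON, 71.3 and 81.0 in A2780 OlaR, and 14.9 and 18.6 in A2780. Most of the sum in C13* shCEBPB was FOLR1 (median 878) and MSLN (median 161.7), while WFDC2 had medians of 40.2 in C13* shCON and in A2780 OlaR and was near 0 in the other groups. PAX8, WT1 and MUC16 of that list did not exceed 6.93 in any library. The library codes begin with C for A2780 OlaR, O for A2780, CS for C13* shCON and R for C13* shCEBPB. One C13* shCON library, replicate 1, is labelled A2780 in its cell line field and C13* in its title. The A2780 OlaR libraries thus resemble those labelled C13* shCON more than their labelled parent, and whether labels were exchanged between groups is not known from the files used here. Groups are named by their labels throughout, and each fold change is between labelled groups, not an established effect of knockdown or of resistance. The part of these differences in the results was not tested. CEBPB itself averaged 85.8 ± 9.93 (SD, n = 7) FPKM in C13* shCON and 47.1 ± 9.05 (SD, n = 8) in C13* shCEBPB, 54.9% of the control (limma, adjusted p = 1.42e-06). It averaged 99.7 ± 7.63 in A2780 and 111.8 ± 11.6 in A2780 OlaR (SD, n = 8 each), 112.1% (limma, adjusted p = 0.0202). FPKM give no read totals, so absolute depth is unknown. Relative depth, read from the steps of low FPKM values, ran from 0.865 to 1.23 over the 31 libraries.

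The first comparison sets the libraries labelled C13* shCEBPB against those labelled C13* shCON, by design a test of CEBPB knockdown. They moved in both directions. Lower levels in C13* shCEBPB were found for CENPE (40.6% of the shCON mean), CDC25C (51.9%), MAD2L1 (53.1%), PLK4 (54.4%), TOP2A (56.5%), CCNA2 (57.6%) and MKI67 (57.8%), and higher levels for PRC1 (189.6%), MYBL2 (157%), FOXM1 (135%) and CDK1 (132%). Changes were tested with limma on log2(FPKM + 1), with Benjamini-Hochberg adjustment over 12006 genes, and a gene with an adjusted p under 0.05 is called changed. Of the 40 genes, 27 (67.5%) changed, against 84.7% of all genes tested. Of these, 8 rose (38.9% of all genes tested did) and 19 fell (45.7% of all genes tested did). With quantile normalization, 5 rose and 23 fell. Only CENPE changed by at least 2-fold, as 29.5% of all genes did. No overlap between libraries of shCON and shCEBPB was seen for 19 genes, 4 of them higher and 15 lower, where 66.0% of all genes tested did not overlap. The median log2 fold change was -0.13 over the 40 genes and -0.07 over all genes tested. RNA was taken from whole cultures, so fewer cells in G2 and mitosis cannot be told apart from less RNA of these genes per cell.

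Within the CDK1 group, the kinase and its cyclins did not move together. CDK1 lay between 101.3 and 115 FPKM (median 108) in shCON and between 120.3 and 171 (median 135) in shCEBPB, and every shCEBPB library was above every shCON library. The log2 fold change was 0.39 (SE 0.07, adjusted p = 6.53e-05), and an exact permutation test of the means (two-sided) gave p = 0.000311. CCNB1, cyclin B1, the mitotic partner of CDK1, lay between 103 and 116 (median 104) in shCON and between 111 and 128 (median 116) in shCEBPB, and the groups overlapped. It rose by a log2 fold change of 0.14 (SE 0.04, adjusted p = 0.00277, exact permutation p = 0.00186), and under quantile normalization its value was -0.01 (adjusted p = 0.924). CCNA2, cyclin A2, which acts in S phase and G2, fell in contrast, with a log2 fold change of -0.79 and no overlap. CCNB2 did not pass the test (-0.09, adjusted p = 0.207), but was called lower with quantile normalization (-0.25) and in libraries 4 to 8 (-0.18).

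The phosphatases that activate CDK1 also differed. CDC25C, the family member that acts at mitotic entry, lay between 16.4 and 20.7 FPKM (median 18.8) in shCON and between 8.55 and 11.7 (median 9.64) in shCEBPB, without overlap. The log2 fold change was -0.88 (SE 0.07, adjusted p = 6.49e-10), and the exact permutation p was 0.000155, the smallest the test can give here. Of its 3329 exonic bases, 293 are shared with FAM53C on the other strand. CDC25B fell by less (-0.40), and CDC25A, which also acts at entry into S phase, had -0.01 (adjusted p = 0.859).

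Of the Polo-like and Aurora kinases, 3 of 4 fell. PLK4, the kinase that starts centriole duplication, had a lowest, median and highest FPKM of 18.4, 20.1 and 23.3 in shCON and of 9.92, 10.3 and 14.5 in shCEBPB, without overlap. PLK4 fell with a log2 fold change of -0.83 (SE 0.08, adjusted p = 2.14e-08, exact permutation p = 0.000155). PLK1, which acts at mitotic entry, at the spindle poles and in cytokinesis, stood at 84.7, 91.7 and 95.6 in shCON and at 79.1, 80.9 and 84.9 in shCEBPB, with an overlap of a narrow margin. It fell by 0.16 on the log2 scale (SE 0.03, adjusted p = 0.00027, exact permutation p = 0.000311), and 611 of its 4760 exonic bases lie opposite ERN2 and a gene without a symbol. AURKA, the centrosomal Aurora kinase, fell by 0.49 on the log2 scale without overlap, whereas AURKB, the kinase of the chromosomal passenger complex, had -0.04 (adjusted p = 0.422), and was called lower with quantile normalization (-0.20) and in libraries 1 to 3 (-0.17).

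All 4 changed genes of the spindle assembly checkpoint fell. MAD2L1, whose protein binds CDC20 to hold back anaphase, lay between 84.9 and 94.4 FPKM (median 90.0) in shCON and between 42.8 and 52.1 (median 46.1) in shCEBPB. No library of either group came near the other group, and the log2 fold change was -0.90 (SE 0.05, adjusted p = 4.07e-12, exact permutation p = 0.000155). BUB3 fell by 0.43 without overlap, and BUB1 by 0.24 and TTK, the kinase MPS1, by 0.36 on the log2 scale with overlap. In libraries 1 to 3 BUB1 had -0.05 (adjusted p = 0.465) and TTK 0.07 (adjusted p = 0.468), and TTK also lost its call with the GC content and length correction and replicate block (-0.16, adjusted p = 0.0947). BUB1B had 0.09 (adjusted p = 0.302), and was called higher with the correction (0.21) and in libraries 1 to 3 (0.36).

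At the centromere and kinetochore, CENPE alone among the 5 genes listed passed the test. CENPE is the kinesin that carries chromosomes to the spindle equator. Its lowest, median and highest FPKM were 16.6, 19.2 and 24 in shCON and 6.32, 7.08 and 11.3 in shCEBPB. The groups did not overlap, and the log2 fold change of -1.22 (SE 0.12, adjusted p = 1.69e-08, exact permutation p = 0.000155) was the largest fall of the 40 genes. CENPA, the histone of centromeres, had -0.08, CENPF 0.03, and the outer kinetochore subunits NDC80 and NUF2 had 0.09 and 0.14, with adjusted p from 0.19 to 0.859. NUF2 and NDC80 were called higher with the GC content and length correction (0.37 with adjusted p = 4.82e-05, and 0.31 with adjusted p = 1.44e-05) and in libraries 1 to 3 (0.40 and 0.24). NDC80 was also called with median ratio scaling (0.15), and CENPA was called lower in libraries 1 to 3 (-0.24) and with quantile normalization (-0.12).

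Among spindle proteins, TPX2, which activates AURKA on microtubules, fell by 0.51 on the log2 scale, and KIF2C, a kinesin that shortens microtubules, by 0.21, both without overlap. The motors KIF11, KIF20A and KIF23 had values from -0.07 to 0.04 and did not pass the test. KIF11 was called higher with the GC content and length correction (0.23) and in libraries 1 to 3 (0.27), KIF20A in libraries 1 to 3 (0.25), and KIF23 lower in libraries 4 to 8 (-0.21). In the chromosomal passenger complex, which corrects wrong attachments, the subunits parted. CDCA8, borealin, fell by 0.64 without overlap, while BIRC5, survivin, rose by 0.31 and INCENP, the scaffold, by 0.18 on the log2 scale, both with overlap. The call of INCENP was lost with quantile normalization (0.08, adjusted p = 0.231), the block by library number (0.16, adjusted p = 0.0522), the GC content and length correction (0.07, adjusted p = 0.0724), that correction with the replicate block (0.08, adjusted p = 0.0824) and in libraries 1 to 3 (0.02, adjusted p = 0.813). BIRC5 lost its call in libraries 1 to 3 (0.11, adjusted p = 0.203).

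At anaphase onset, PTTG1, securin, which restrains the protease separase, fell by 0.67 and CDC20, the activator of the anaphase-promoting complex, by 0.66 on the log2 scale, both without overlap. UBE2C, the ubiquitin-conjugating enzyme of that complex, fell by 0.19 with overlap. ESPL1, separase itself, had 0.09 (adjusted p = 0.0852), and was called higher with median ratio scaling (0.15), with a common sum of FPKM (0.10) and in libraries 4 to 8 (0.12).

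MKI67 and TOP2A, which shape mitotic chromosomes, both fell. MKI67 lay between 50.4 and 65.3 FPKM (median 54.1) in shCON and between 27.3 and 41.1 (median 30.4) in shCEBPB, without overlap. The log2 fold change was -0.78 (SE 0.09, adjusted p = 1.45e-07, exact permutation p = 0.000155). TOP2A, the topoisomerase that untangles sister DNA, lay between 173 and 211 (median 189) in shCON and between 91.7 and 134 (median 100.4) in shCEBPB, again without overlap. Its log2 fold change was -0.83 (SE 0.07, adjusted p = 9.36e-09, exact permutation p = 0.000155). The paper stained Ki-67 protein in mouse tumours grown from C13* and saw no significant variation with C/EBPβ depletion, a different measure from RNA in culture.

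The transcription factors went the other way. FOXM1 lay between 40.4 and 45.3 FPKM (median 41.7) in shCON and between 54.8 and 59.7 (median 57.5) in shCEBPB. It rose by a log2 fold change of 0.42 (SE 0.04, adjusted p = 4.73e-09, exact permutation p = 0.000155), and 782 of its 4919 exonic bases lie opposite ITFG2. MYBL2, B-MYB, lay between 108 and 120 (median 113) in shCON and between 164 and 188 (median 179) in shCEBPB. It rose by 0.65 (SE 0.04, adjusted p = 2.62e-11, exact permutation p = 0.000155), and neither gene's groups overlapped. Thus FOXM1 and MYBL2 were higher in the same libraries in which CCNA2, CENPE, MKI67 and TOP2A were lower. CDK1, CCNB1, PRC1, BIRC5, INCENP and ECT2 were called higher there as well. In all, 8 of the 40 genes rose and 19 fell, where 38.9% and 45.7% of all genes tested did.

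Of the cytokinesis genes, PRC1 had the largest rise of the 40. PRC1 bundles the microtubules of the central spindle. It lay between 75.6 and 81.7 FPKM (median 78.9) in shCON and between 138 and 155 (median 149.8) in shCEBPB, without overlap, with a log2 fold change of 0.91 (SE 0.03, adjusted p = 1.96e-14, exact permutation p = 0.000155). In GENCODE 44, 3181 of its 5523 exonic bases are shared with a gene on the same strand and 1892 with PRC1-AS1 on the other, and strand use in counting is not given in the sources used here. ECT2, the exchange factor that sets off the contractile ring, rose by 0.27 with overlap, a call lost with quantile normalization (0.16, adjusted p = 0.0899) and in libraries 4 to 8 (0.13, adjusted p = 0.0723). ANLN, anillin, the scaffold of that ring, had -0.17 (adjusted p = 0.0686), and fell with quantile normalization (-0.32) and in libraries 4 to 8 (-0.34).

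By promoter letters, the 24 genes with a CHR match had a median log2 fold change of -0.09 in C13* shCEBPB, with 4 higher and 10 lower, and the 9 without one -0.04, with 2 higher and 4 lower. The 26 genes with a CCAAT match had a median of -0.09, with 5 higher and 12 lower, and the 7 without one 0.09, with 1 higher and 2 lower. The 4 genes with C/EBP letters ran from -0.83 to 0.18, with 1 higher and 1 lower. In A2780 OlaR, on the scale as fitted before any shift, all 9 genes without a CHR match rose, with a median of 1.02, and of the 24 with one 19 rose and 4 fell, with a median of 0.55. There 24 of 26 genes with a CCAAT match rose and 2 fell (median 0.66), and 4 of 7 without one rose and 2 fell (median 0.87). Of all genes tested, 38.9% were higher and 45.7% lower in C13* shCEBPB, and 40.1% and 49.7% in A2780 OlaR. The differences by promoter letters were not tested.

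The second comparison asks how the libraries labelled A2780 OlaR differed from those of the parent line A2780. Here most of the 40 genes were higher. ANLN reached 409% of the A2780 mean, CDC25B 396%, AURKA 378%, MKI67 370%, TPX2 336%, INCENP 327% and TOP2A 313%. ECT2 was the largest fall, to 49.2%. Over all 12458 genes tested the median log2 fold change was -0.12, and it was 0.01 when libraries were scaled by the median ratio. Log2 fold changes of this comparison are therefore given relative to that median, with the test as fitted before the shift. Of the 40 genes, 38 (95%) changed, where 89.8% of all genes tested did. Higher levels were found for 34 (85%), where 40.1% of all genes tested were higher, and lower levels for 4 (10%), where 49.7% were. By the fold as fitted before the shift, a change of at least 2-fold was seen for 15 genes (37.5%), 14 higher and 1 lower, where 35.7% of all genes tested had one. On that scale ECT2, the 1 lower gene, had -1.01 and CDK1, not counted, had 0.95. The libraries did not overlap for 34 genes, 32 higher and 2 lower, where 74.1% of all genes tested did not overlap. The median of the 40 genes was 0.70 as fitted and 0.82 above the median of all genes. The 13 squamous markers tested had a median 5.27 above that of all genes, and their part in the result was not tested. RNA here was also from whole cultures, so more cells in G2 and mitosis cannot be told apart from more RNA per cell. The paper describes the cell cycle differences between A2780 and A2780 OlaR, measured under olaparib, as subtle.

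CDK1 and all 3 cyclins rose. CCNB1 lay between 43.1 and 51.3 FPKM (median 47.5) in A2780 and between 93.8 and 112 (median 100.02) in A2780 OlaR, without overlap. CCNB1 rose by 1.22 (SE 0.04, adjusted p = 4.98e-15, exact permutation p = 0.000155, the smallest possible). CDK1 lay between 43.9 and 59.3 (median 49.1) in A2780 and between 85.3 and 113 (median 93.7) in A2780 OlaR, with a log2 fold change of 1.07 (SE 0.07, adjusted p = 7.59e-11, exact permutation p = 0.000155). CCNA2 rose by 0.85, and CCNB2 by 0.38 with overlap.

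All 3 phosphatases rose. CDC25B had a lowest, median and highest FPKM of 21.1, 22.9 and 24.2 in A2780 and of 86.9, 90.1 and 94.7 in A2780 OlaR, far from overlap. Its log2 fold change was 2.06 (SE 0.03, adjusted p = 1.42e-21, exact permutation p = 0.000155). CDC25A rose by 1.14 and CDC25C by 0.65.

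The 4 Polo-like and Aurora kinases rose without overlap. AURKA stood at 23.4, 24.5 and 26.3 in A2780 and at 90.2, 93.0 and 96.6 in A2780 OlaR. Its log2 fold change was 2.0 (SE 0.03, adjusted p = 2.98e-21, exact permutation p = 0.000155), and AURKB, its relative at the centromere, rose by 1.49. PLK1 lay between 52.3 and 59.3 (median 57.0) in A2780 and between 85.8 and 94.7 (median 90.0) in A2780 OlaR. It rose by 0.79 (SE 0.03, adjusted p = 4.12e-14, exact permutation p = 0.000155), and PLK4 by 0.69.

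The checkpoint and kinetochore genes had the lowest medians of the 11 roles (0.33 and 0.50) and held 2 of the 4 falls. In the checkpoint, BUB1 rose by 1.20, MAD2L1 by 0.74 and BUB3 by 0.33. BUB1B had 0.19 (0.07 as fitted, adjusted p = 0.256). It was called higher with median ratio scaling, with the GC content and length correction and in libraries 1 to 3. TTK had -0.01 (-0.12 as fitted, adjusted p = 0.274). At the kinetochore, NDC80 lay between 30.6 and 43.8 FPKM (median 33.1) in A2780 and between 21.3 and 28.0 (median 23.8) in A2780 OlaR, without overlap. NDC80 had a log2 fold change of -0.36 (-0.48 as fitted, SE 0.07, adjusted p = 2.65e-06, exact permutation p = 0.000155). Its partner NUF2 lay between 25.5 and 37.5 (median 29.6) in A2780 and between 20.4 and 29.6 (median 23.4) in A2780 OlaR, with overlap. NUF2 had a log2 fold change of -0.18 relative to the median of all genes. The test is of the value as fitted, -0.30 (SE 0.09, adjusted p = 0.00364, exact permutation p = 0.00886). It did not pass with median ratio scaling (-0.16 as fitted, adjusted p = 0.0813). CENPE rose by 0.99, CENPA by 0.58 and CENPF by 0.50.

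Spindle and passenger genes all rose. TPX2 had a log2 fold change of 1.84, KIF20A, a motor of the central spindle, 1.47, and KIF2C 1.16, while KIF23 and KIF11 had 0.66 and 0.61. INCENP rose by 1.75, CDCA8 by 0.77 and BIRC5 by 0.76, and no gene of either group overlapped.

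Among genes of anaphase, PTTG1 rose by 1.13, UBE2C by 0.92 and ESPL1 by 0.78, without overlap. CDC20 was the exception. It lay between 157 and 184 FPKM (median 169.6) in A2780 and between 132 and 158 (median 149.8) in A2780 OlaR, with a narrow overlap. CDC20 had a log2 fold change of -0.10 relative to the median of all genes. The test is of the value as fitted, -0.22 (SE 0.04, adjusted p = 0.000137, exact permutation p = 0.000311). It did not pass with median ratio scaling (-0.08 as fitted, adjusted p = 0.118).

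The transcription factors and the genes of chromosome structure rose together here. FOXM1 lay between 28.1 and 31.3 FPKM (median 29.2) in A2780 and between 47.1 and 51.5 (median 49.9) in A2780 OlaR, and rose by 0.85 (SE 0.03, adjusted p = 2.25e-14, exact permutation p = 0.000155). MYBL2 rose by 0.99, likewise without overlap. MKI67 lay between 13.4 and 14.4 (median 13.9) in A2780 and between 45.1 and 58.5 (median 49.4) in A2780 OlaR, and rose by 1.93 (SE 0.05, adjusted p = 1.42e-17, exact permutation p = 0.000155). TOP2A lay between 59.7 and 69.3 (median 63.1) in A2780 and between 174 and 228 (median 191) in A2780 OlaR, and rose by 1.74 (SE 0.06, adjusted p = 2.60e-15, exact permutation p = 0.000155).

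The cytokinesis genes held the extremes of both directions. ANLN lay between 17.7 and 24.4 FPKM (median 19.3) in A2780 and between 69.7 and 97.4 (median 76.7) in A2780 OlaR. Its log2 fold change of 2.09 (SE 0.08, adjusted p = 1.02e-14, exact permutation p = 0.000155) was the largest of the 40. ECT2 went the other way, with 66.7 to 89.0 (median 74.1) in A2780 and 31.1 to 43.8 (median 35.9) in A2780 OlaR, without overlap. ECT2 had a log2 fold change of -0.89 (SE 0.08, adjusted p = 2.50e-10, exact permutation p = 0.000155). PRC1, the largest rise of the first comparison, rose by 0.52, or by 0.40 as fitted, the scale of the first comparison.

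**Figure D1:**
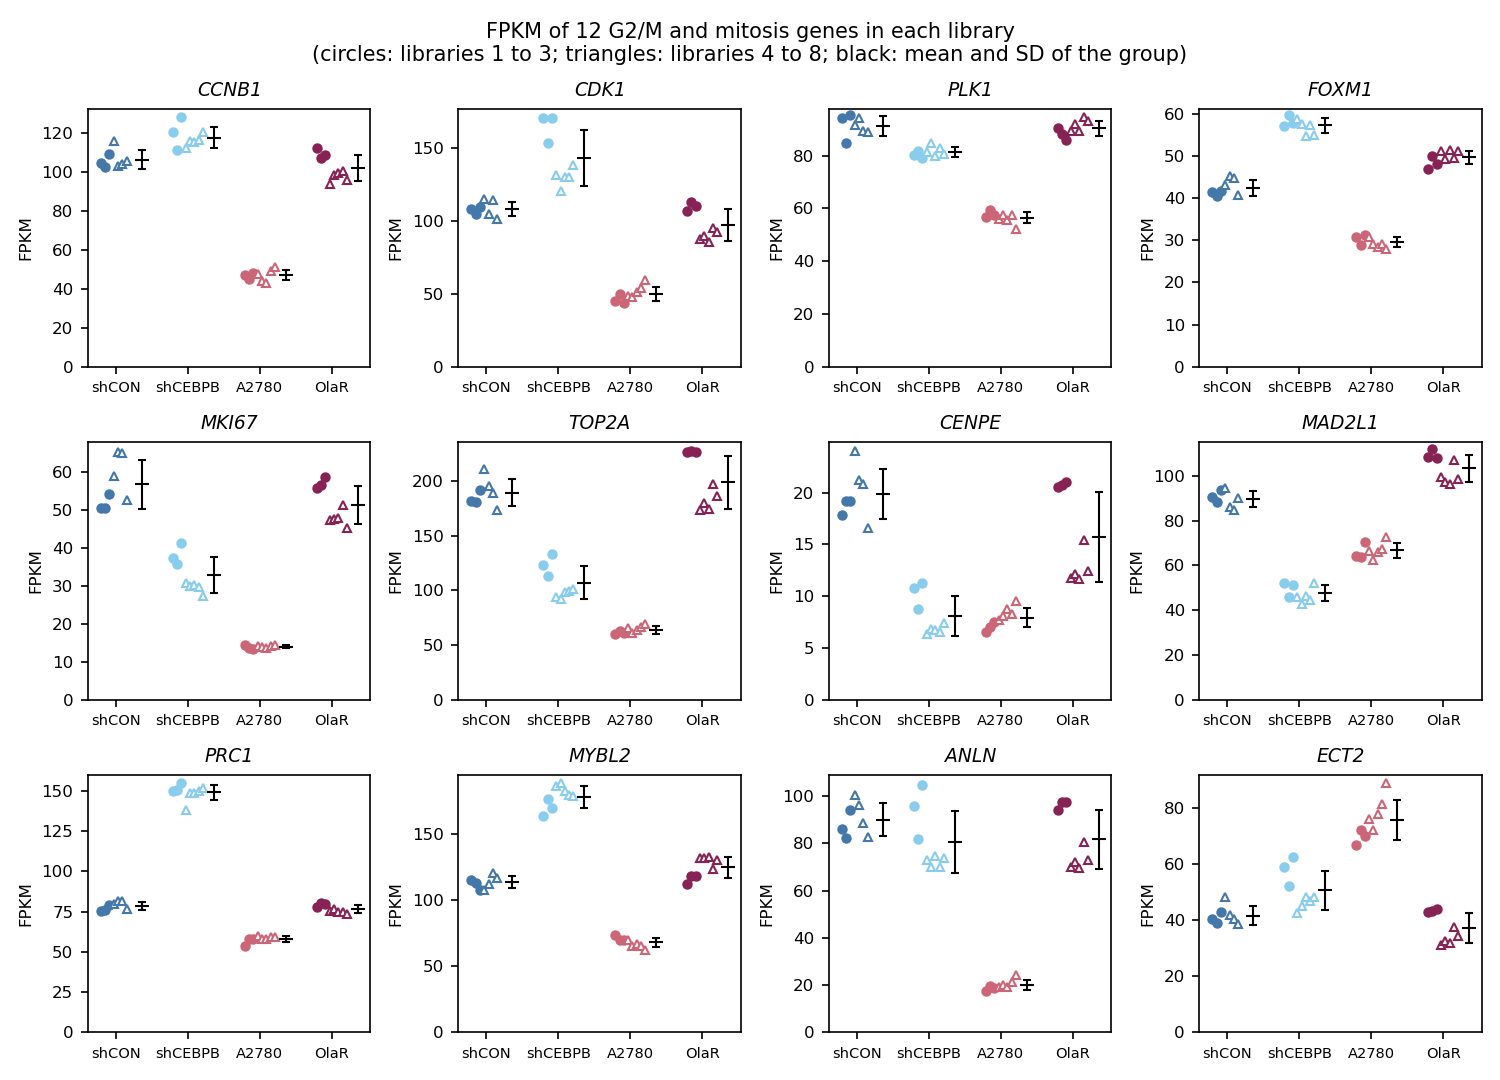
FPKM (y axis, from 0) of 12 of the genes in each library of the 4 groups (x axis), with circles for libraries 1 to 3, triangles for libraries 4 to 8 and the group mean and SD in black. A2780 is the lowest group for CCNB1, CDK1, PLK1, FOXM1, MKI67, TOP2A, PRC1, MYBL2 and ANLN, and the highest for ECT2.

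Set side by side, the 4 groups were ordered mainly by the low levels of A2780. The group mean was lowest in A2780 for 31 of the 40 genes (77.5%), where A2780 was lowest for 29.4% of 12967 genes. It was lowest in C13* shCEBPB for 6 genes, BUB3, CDC20, CDC25C, MAD2L1, PLK4 and TTK, and in A2780 OlaR for ECT2, NDC80 and NUF2. Of all genes, 36.6% were lowest in C13* shCEBPB and 18.5% in A2780 OlaR. No gene of the 40 was lowest in C13* shCON, where 15.5% of all genes were. The mean was highest in C13* shCON for 18 genes, in C13* shCEBPB for 13, among them CDK1, FOXM1, MYBL2 and PRC1, in A2780 OlaR for 6, and in A2780 for CDC20, ECT2 and NDC80. The shares of all genes were 17.4%, 26.2%, 16.1% and 40.3% in that order. The FPKM of the 40 genes summed to between 1597 and 1722 in A2780, 2464 and 2867 in C13* shCEBPB, 2655 and 3042 in A2780 OlaR, and 2814 and 3102 in C13* shCON. The sums of A2780 lay below all others, and those of the other 3 groups overlapped with each other.

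**Figure D2:**
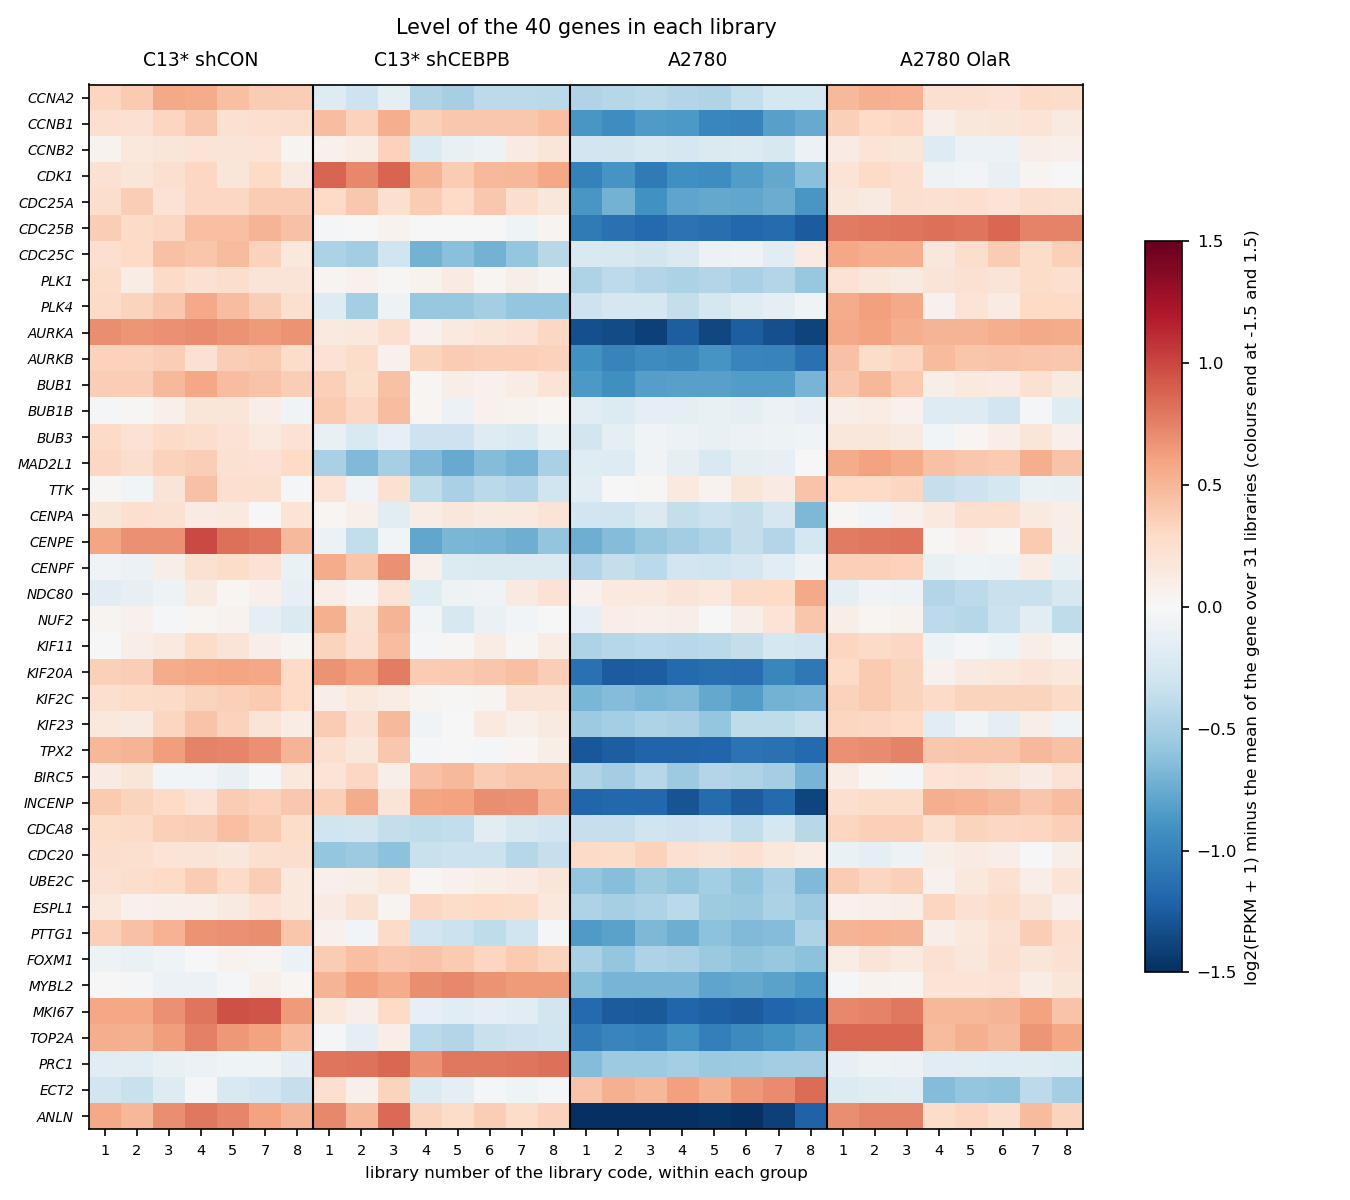
Log2(FPKM + 1) of the 40 genes (rows) in the 31 libraries (columns, by group and library number), less the mean of each gene over all libraries, from blue (-1.5) to red (1.5). The A2780 columns are blue for most genes, with CDC20, NDC80 and ECT2 as red rows, and within C13* shCEBPB and A2780 OlaR the first 3 columns are redder than the rest for many genes.

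The libraries labelled C13* shCON and A2780 OlaR, from different lines by their labels, were about as close in these genes as over all genes. Of the 40 genes, 5 (12.5%) did not overlap between them, where 15.4% of 12967 genes did not. Between C13* shCEBPB and A2780, 29 of the 40 (72.5%) did not overlap, where 71.0% of all genes did not. The median size of the log2 difference between group means over the 40 genes was 0.12 between C13* shCON and A2780 OlaR, 0.29 between C13* shCON and C13* shCEBPB, and 0.73 between A2780 and A2780 OlaR. Over all genes the same values were 0.12, 0.54 and 0.69.

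Within 2 of the groups the level of many mitotic genes went with the library number in the library codes. In A2780 OlaR, 25 genes were lower in libraries 4 to 8 than in libraries 1 to 3 without overlap and 5 were higher, where 28.8% of all genes were lower and 22.7% higher. In C13* shCEBPB, 17 were lower and 5 higher, where 24.1% and 22.9% of all genes were. In C13* shCON 2 genes were higher (2.51% of all genes) and none of the 40 was lower (2.35%), and in A2780 6 were higher (8.6%) and 1 lower (10.3%). CENPE showed the largest such step in A2780 OlaR, with a mean of 20.8 FPKM in libraries 1 to 3 and 12.7 in libraries 4 to 8. CENPF, a kinetochore protein of late G2, showed it in C13* shCEBPB, with 51.9 and 31.4. MYBL2, CENPA, BIRC5 and CDC20 stepped the other way in both groups, for example MYBL2 from 116.1 to 130.1 in A2780 OlaR and from 169.7 to 183 in C13* shCEBPB. AURKA, PLK1, FOXM1 and CDC25B overlapped between the ranges in both groups. CEBPB, the targeted gene, stepped up in C13* shCEBPB, from between 30.2 and 42.1 FPKM in libraries 1 to 3 to between 47.7 and 58.7 in libraries 4 to 8. In C13* shCON it lay between 85.4 and 100.7 and between 75.2 and 93.1, with overlap, and it also overlapped in the A2780 and A2780 OlaR groups. The part of CEBPB in the steps of the 40 genes was not tested. The labels do not say how the ranges differ, and with 3 and 5 libraries (4 in C13* shCON) the steps are given without a test.

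Each comparison was also made within the ranges, although equal numbers do not mark matched libraries. Deviations from group means correlated at -0.214 in C13* and -0.465 in A2780, on average, between libraries 1 to 3 of both groups. Across ranges the averages were 0.164 and 0.28. These fits therefore do not hold a shared batch constant. In C13*, libraries 1 to 3 gave 12 higher and 19 lower genes with a median of -0.01, where 37.5% of all genes were called higher and 44.6% lower. Libraries 4 to 8 gave 8 higher and 23 lower with a median of -0.21, where 39.6% and 46.6% of all genes were. The log2 fold change of CENPE was -0.82 in libraries 1 to 3 and -1.47 in libraries 4 to 8, that of MKI67 -0.43 and -1.0, and that of CDK1 0.61 and 0.26. PRC1 (0.97 and 0.87), MYBL2 (0.60 and 0.67) and FOXM1 (0.49 and 0.37) rose within both. CENPF rose in libraries 1 to 3 (0.57, adjusted p = 0.000116) and fell in libraries 4 to 8 (-0.31, adjusted p = 0.00277). In A2780 OlaR, relative to the median of all genes, ANLN had 2.42 in libraries 1 to 3 and 1.89 in libraries 4 to 8, CENPE 1.55 and 0.65, and AURKA 2.04 and 1.97. TTK rose in libraries 1 to 3 (0.47, or 0.36 as fitted, adjusted p = 0.000104). It fell in libraries 4 to 8 (-0.29, or -0.41 as fitted, adjusted p = 5.02e-05). NUF2 had 0.15 (0.04 as fitted, adjusted p = 0.498) and -0.38.

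Other mitotic genes, from 6 lists of the same pathways, give the surroundings of the 40. In C13* shCEBPB, 136 of 139 listed genes were tested, of which 39 rose and 67 fell, and the median log2 fold change was -0.14. There 38.9% of all genes tested rose and 45.7% fell, with a median of -0.07. In A2780 OlaR, 137 were tested, of which 84 rose and 36 fell, and the median was 0.46 above that of all genes. There 40.1% of all genes tested rose and 49.7% fell. The largest changes in C13* shCEBPB were falls. CDKN1A, the CDK inhibitor p21, averaged 171 ± 9.45 (SD, n = 7) FPKM in shCON and 13.2 ± 3.99 (SD, n = 8) in shCEBPB, and GADD45A, a stress-induced inhibitor of CDK1, 180 ± 19.9 and 18.1 ± 2.96, with log2 fold changes of -3.64 and -3.25. CENPU, a subunit of the inner kinetochore, fell from 27.2 to 4.39, CKAP2L, a spindle protein, from 43.9 to 9.16, and DLGAP5, which bundles spindle microtubules, from 85.8 to 23.0. RBL2, the pocket protein p130, which represses these genes with the MuvB complex in resting cells, fell from 50.4 to 18.2.

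In A2780 OlaR the largest changes of these lists were mostly rises. TRIP13, the ATPase that takes the MAD2 checkpoint complex apart, averaged 13.1 ± 0.507 FPKM in A2780 (SD, n = 8) and 175 ± 14.3 in the libraries labelled A2780 OlaR (SD, n = 8). NCAPD3 and NCAPD2, condensin subunits, rose from 10.5 to 61.0 and from 23.4 to 92.5. CKAP2L rose from 8.32 to 43.1, CDKN1A from 13.8 to 117 and RBL2 from 13.6 to 50, and CCNB3, a meiotic cyclin, fell from 8.33 to 0.255. By list, 11 of 19 condensin and cohesin genes rose and 4 fell, 25 of 35 other kinetochore genes rose and 5 fell, 21 of 28 spindle and midzone genes rose and 4 fell, and 8 of 17 genes of the anaphase-promoting complex rose and 6 fell. In C13* shCEBPB, 8 condensin and cohesin genes rose and 8 fell, 9 kinetochore genes rose and 18 fell, 3 spindle and midzone genes rose and 17 fell, and 6 genes of the anaphase-promoting complex rose and 7 fell. Of the MuvB core and its partners, 5 rose and 7 fell in C13* shCEBPB and 6 rose and 8 fell in A2780 OlaR. Of the regulators of mitotic entry and exit, 8 rose and 10 fell in the former and 13 rose and 9 fell in the latter. Of all genes tested, 38.9% rose and 45.7% fell in C13* shCEBPB, and 40.1% rose and 49.7% fell in A2780 OlaR. Whether a list differed from these shares was not tested.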

How the data were processed

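mRNA of 31 cell line libraries was sequenced. Per the submitters' notes and the methods of the study, reads were checked with FastQC, mapped to hg38 with TopHat and counted with HTSeq, and edgeR was used by the authors on those counts. The deposited values are FPKM in 1 table. The tool and annotation behind the FPKM, and strand use, are not given in the sources used here. Of the rows, 4 with repeated symbols were left out. Log2(FPKM + 1) was fitted with limma 3.58.1 in R 4.3.3 (trend, two-sided, Benjamini-Hochberg over all genes tested) on the 2 groups compared. A gene was tested if its FPKM reached 1 in at least 7 libraries (C13*) or 8 libraries (A2780). Fold changes on this scale understate the change of low genes. Named genes had an exact permutation test of group means (numpy 2.4.6). The fit was tested on simulated data. The members and lists were chosen with earlier results of these data known. All 40 are named. Full values are given for CCNB1, CDK1, PLK1, FOXM1, MKI67 and TOP2A and for the 4 largest rises and 4 largest falls per comparison, and among related genes for the largest changes of a list. Positions and shared exons come from GENCODE 44, and promoters from RefSeq. Protein features were not analysed here. Replicate numbers of the labels do not pair the libraries: the correlation of same-numbered deviations from group means averaged -0.148 in C13* and -0.233 in A2780. Alternatives were other pseudocounts, filters, scalings, blocks, library ranges, a correction for GC content and length, and left-out libraries.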

Additional observations from a re-analysis of the deposited data

Results flagged for a closer look

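A library far from the others of its group by Dixon's criterion was found in 10 of 164 sets of values (6.1%), and chance alone flags about 1 in 20. Of these, 8 were in A2780. Replicate 8 of A2780 was the highest of its group for CCNB2 (68.1 FPKM, next 62.6), CDC25C (16.0, next 13.8), BUB1 (26.5, next 24.4) and NDC80 (43.8, next 36.2), and the lowest for CENPA (13.7, next 17.3) and BIRC5 (30.5, next 33.9). Without this library, which was left out after seeing the data, 34 of the 40 genes were higher and 4 lower in A2780 OlaR, as with it. Replicate 1 of A2780 was the lowest for BUB3 (77.2, next 85.1) and PRC1 (53.8, next 57.8). In A2780 OlaR, replicate 4 was the lowest for CDCA8 (36.9, next 38.8). In C13* shCEBPB, replicate 4 was the lowest for PRC1 (138 FPKM, next 148), and still above every C13* shCON library.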

How the results depend on the processing

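Of 15 alternatives per comparison, all but the fold change threshold left between 26 and 31 of the 40 genes called in C13* shCEBPB and between 37 and 39 in A2780 OlaR. In C13* shCEBPB, 22 of the 40 genes stayed on their side of the threshold under all 14 settings that refit them, and in A2780 OlaR 36 did. The called genes among them also kept their direction, while genes not called could change sign. With a fold change of at least 2, 3539 of all genes (1530 higher, 2009 lower) and 1 of the 40 genes (0 higher, 1 lower) were called in C13* shCEBPB, and 4446 (1936 higher, 2510 lower) and 15 (14 higher, 1 lower) in A2780 OlaR, by construction of the threshold. The median of the 40 genes was -0.13 in C13* shCEBPB as reported. Quantile normalization gave 5 higher genes, a median of -0.25 and CCNB1 at -0.0054 in C13* shCEBPB. There the median of the 40 genes was -0.0142 in libraries 1 to 3, -0.21 in libraries 4 to 8, -0.0393 with the GC content and length correction and -0.0341 with that correction and the replicate block, TTK had 0.0744 in libraries 1 to 3, and CENPF had -0.31 in libraries 4 to 8. In A2780 OlaR, with values here as fitted and not relative to the median of all genes, the median of the 40 genes was 0.70 as reported, 0.63 with a common sum of FPKM, 0.84 with median ratio scaling, which left 2 lower genes, and 0.81 in libraries 1 to 3, where TTK had 0.36 (-0.12 over all libraries) and NUF2 0.0414 (-0.30 over all libraries). Apart from the threshold, the library ranges and the left-out libraries, the cause of these changes was not tested. With the replicate block, 27 genes were called in C13* shCEBPB (8 higher, 19 lower) and 38 in A2780 OlaR (34 higher, 4 lower), as without it, and 9887 and 10960 of all genes. With the block by library number, 26 (7 higher, 19 lower) were called in C13* shCEBPB. Libraries correlated best with their own number in 1 of 7 cases in C13* and 0 of 8 in A2780, so the samples share only a number. Without C13* shCON replicate 1, which is labelled A2780 in 1 field, 27 genes were called with a median of -0.13.

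FPKM hold no read counts, so counting error and detection limits cannot be given. Genes that share exons, such as PRC1, BUB1B and FOXM1, cannot be told apart from their neighbours without strand or read data. The groups differ in lineage markers and in library range as well as in their label, and these cannot be told apart from the labelled condition.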
